A study of Mus musculus with 6 samples.

Results

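C2C12 cells treated with BTZ in 2% differentiation medium were compared with C2C12 cells treated with BTZ in growth medium with 10% fetal bovine serum (FBS). The comparison takes 2 of the 6 arrays of the series, chosen by the medium and treatment in their titles, and asks which differences between the media remain under BTZ. C2C12 cells are an established line of mouse myoblasts, which multiply while serum is plentiful and form multinucleate myotubes once it is reduced. Growth-medium cells received BTZ at 10 nM for 24 h. Differentiating cells were grown in 10% FBS, moved to 2% differentiation medium, given BTZ at 10 nM on day 4 and harvested on day 5. The other arrays were the untreated culture of each medium and a culture of each medium with TNF-α at 50 ng/ml, an inflammatory cytokine. BTZ is the labels' abbreviation, not explained there; it is commonly used for bortezomib, a proteasome inhibitor. The labels call the cell type of every culture myoblasts. Each of the 6 groups was 1 culture on 1 Affymetrix whole-transcript array, so no difference below has an error or a p-value, and 1 array a side is the limit on precision.

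As background, a myoblast that differentiates leaves the cell cycle and switches on muscle genes under the MyoD family of transcription factors, which bind short DNA elements called E-boxes together with E proteins. Myogenin follows MyoD, fusion proteins join the cells, and the sarcomere, the repeating contractile unit, is assembled around the giant proteins titin and nebulin. The proteasome degrades ubiquitin-tagged proteins, and cells in which it is blocked are known to raise chaperones, stress genes and proteasome subunits.

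Values are the deposited log2 signals, and a difference is always differentiation medium minus growth medium, so a difference of 1 is 2-fold. A gene was counted where its highest array reached the floor of 5.06, the median of all values, which left 13652 genes. The median signal per array lay between 5.01 and 5.11, and the median difference over these genes was -0.00 under BTZ and 0.01 in untreated cells. Over probe sets above the floor, the correlation between the BTZ arrays of the different media was 0.958, against 0.930 between the untreated arrays and 0.927 between the TNF-α arrays.

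The markers of a differentiated culture were partly present under BTZ. Ttn, the gene of titin, stood at 5.52 in growth medium with BTZ and at 11.08 in differentiation medium with BTZ, against 5.66 and 11.87 in the untreated cultures. Neb, the gene of nebulin, stood at 5.20 and 9.37 with BTZ, against 4.76 and 10.86 without. Both genes were therefore far higher in the differentiation-medium array with BTZ than in the growth-medium array with BTZ. Ccnd1, which encodes cyclin D1 and marks dividing myoblasts, went the other way from its label: it stood at 7.80 in growth medium and 8.96 in differentiation medium with BTZ, while the untreated values were 10.08 and 7.86. Other genes of dividing cells did not share this: all 38 measured mitotic genes were lower in differentiation medium with BTZ (median -1.85). Cyclin A2 (Ccna2) and Cdk1 were among them. The embryonic myosin Myh3 stood at 7.28 and myogenin (Myog) at 6.93 in the BTZ-treated differentiation culture, below the untreated 11.05 and 10.90. The cultures are therefore called here by their medium. In such bulk RNA, fewer differentiated cells and less muscle RNA per cell cannot be told apart.

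Fewer genes differed between the media under BTZ than without it. Under BTZ 501 genes (3.67% of those above the floor) lay 2-fold or more apart, 210 (1.54%) with the higher value in differentiation medium and 291 (2.13%) with the lower. In untreated cells there were 1195 (8.75%), 660 (4.83%) of them higher and 535 (3.92%) lower, and with TNF-α 1461 (10.7%), 799 (5.85%) higher and 662 (4.85%) lower. Among 8413 probe sets above the floor with no gene named, 352 (4.18%) were higher and 369 (4.39%) lower under BTZ by the same measure, against 322 (3.83%) and 578 (6.87%) in untreated cells. Of the 660 genes higher in untreated differentiation medium, 117 (17.7%) were still higher by 2-fold or more under BTZ, and 448 (67.9%) with TNF-α. Of the 535 lower genes, 181 (33.8%) were still lower by 2-fold or more under BTZ, and 391 (73.1%) with TNF-α. The comparisons with BTZ, with TNF-α and without treatment share no array. The median gene of the higher set had 22.3% of its untreated log2 difference under BTZ and 87.9% with TNF-α; for the lower set these shares were 42.4% and 88.1%. Whether the shares with BTZ and TNF-α differ beyond array noise was not tested, since there is 1 array a side.

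The share past 2-fold was counted by the size of the untreated difference, and a larger difference passes a fixed threshold more easily at the same proportional loss. Of 507 genes with an untreated difference between 1 and 2, 59 (11.6%) were still 2-fold higher under BTZ, against 23 of 90 (25.6%) between 2 and 3, 19 of 34 (55.9%) between 3 and 4 and 16 of 29 (55.2%) at 4 or more. On the lower side 76 of 391 (19.4%), 72 of 108 (66.7%) and 33 of 36 (91.7%) remained for untreated differences of -1 to -2, -2 to -3 and -3 to -4. Signals near the floor compress a difference. In 116 of the 660 higher genes and 31 of the 535 lower genes both BTZ arrays lay under the floor; over the others the remaining shares were 21.0% and 35.5%. Read the other way, 117 of the 210 genes higher under BTZ (55.7%) and 181 of the 291 lower (62.2%) were past 2-fold in untreated cells too. With TNF-α these shares were similar, 448 of 799 (56.1%) and 391 of 662 (59.1%). Across all 13652 genes, which are not independent replicates, the differences with and without BTZ had a Pearson r of 0.486 and a Spearman rank correlation of 0.286, against 0.806 and 0.689 for those with TNF-α and without.

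**Figure D1:**
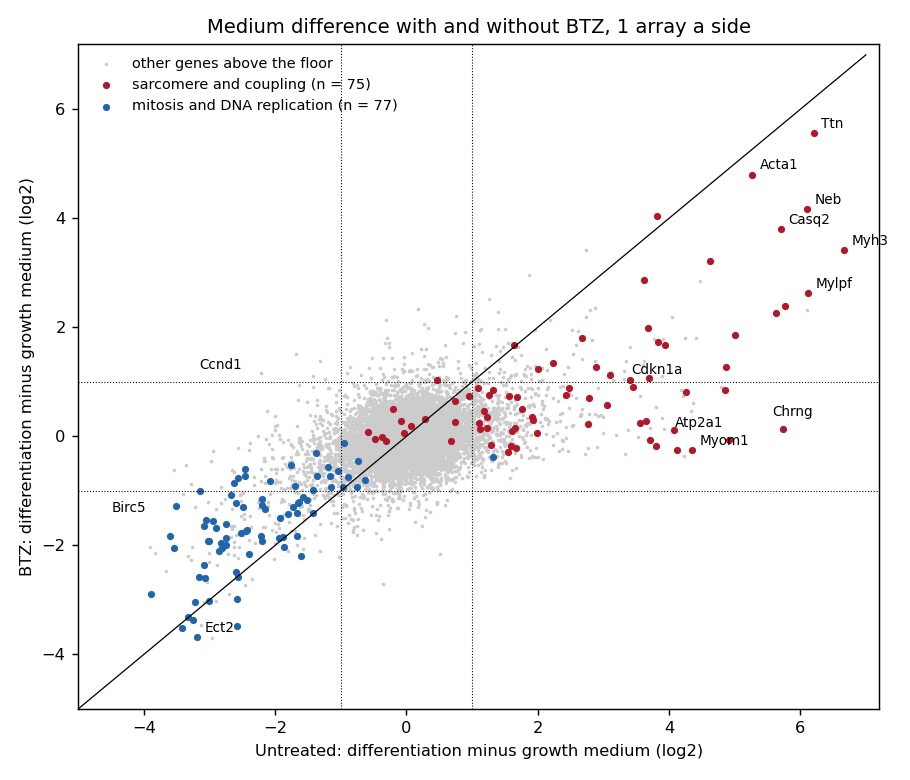
Each point is a gene above the floor: the x axis is its log2 difference between the media in untreated cells and the y axis the same difference under BTZ, with 1 array a side; dotted lines mark 2-fold and the solid line marks equal differences. Most mitosis and replication genes lie close to the solid line or between it and 0 (an exception is E2f2, at 1.32 and -0.38), while sarcomere and coupling genes spread from Ttn at 5.56 down to about 0.

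Sarcomere genes were in part far higher in differentiation medium under BTZ and in part level. Of 47 listed, 45 were measured and 42 reached the floor; 18 of these 42 were higher by 2-fold or more in differentiation medium under BTZ and 0 lower, with a median difference of 0.71. In untreated cells 37 were higher (median 3.59), and with TNF-α 33 (median 2.88). Of the 37, 17 were still past 2-fold under BTZ. Over all 45 measured genes the BTZ median was 0.57. The median signal of the group was 5.54 in growth medium with BTZ and 6.76 in differentiation medium with BTZ, against 5.43 and 9.03 in the untreated cultures. The group thus differed little between the growth-medium arrays, and the differentiation-medium arrays stood apart.

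The giant scaffold proteins and a few partners kept most of their difference. Ttn differed by 5.56 under BTZ, which is 89.5% of its untreated log2 difference, and Neb by 4.17 or 68.3%. Acta1, the skeletal muscle actin, stood at 6.71 and 11.51 with BTZ, a difference of 4.80 or 91.0% of the untreated one. Pdlim3, a Z-disc adaptor of alpha-actinin, stood at 5.55 and 9.60 with BTZ and at 7.94 and 11.76 without. Its level was thus lower with BTZ in both media, and its difference of 4.05 was slightly above the untreated 3.82. The thin-filament nucleator leiomodin 2 (Lmod2) differed by 3.22, and Xirp1, a protein of growing myofibrils and cell junctions, by 2.87. Nrap, which anchors thin filaments while myofibrils form, stood at 6.70 and 10.12 with BTZ, a difference of 3.42 against 2.74 in untreated cells. Of 10 Z-disc genes 7 were past 2-fold under BTZ (median 1.09), including the alpha-actinin Actn3 at 1.73 and the muscle LIM protein Csrp3 at 1.27. Myoz2 at 1.03 and Ldb3 at 0.88 lay just inside and just outside 2-fold.

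Troponins and most myosin heavy chains had smaller differences under BTZ. All 6 myosin heavy chain genes above the floor were past 2-fold in untreated cells and 2 were under BTZ, Myh3 at 3.42 and the fast chain Myh1 at 2.38. Myh4, another fast chain of the same gene cluster, stood at 3.84 and 3.96 with BTZ, both under the floor, against 3.74 and 7.81 in untreated cells. Myosin heavy chain genes are close in sequence, so probe sets may share signal. The fast light chain Mylpf differed by 2.63 and Myl1 by 1.69 under BTZ. All 7 troponin genes were past 2-fold in untreated cells (median 3.72) and 2 were under BTZ (median 0.57), the slow and cardiac calcium-binding subunit Tnnc1 at 1.27 and Tnnt2 at 1.07. The inhibitory subunits Tnni1 and Tnni2 stood at 6.19 and 5.93 in growth medium with BTZ and at 6.13 and 5.76 in differentiation medium with BTZ, against untreated differences of 3.72 and 3.81. Cardiac actin (Actc1) stood at 4.94 and 4.68 with BTZ, both under the floor, and at 5.03 and 9.16 without. Of the M-band genes, Myom2 differed by 2.26 under BTZ and Myom1 by -0.26, after 5.63 and 4.35 in untreated cells. Myom1 stood at 4.43 and 4.17 with BTZ, both under the floor. Related genes that were all high in untreated differentiation medium therefore ended at opposite ends of the list under BTZ. In 10 of the 42 sarcomere genes both BTZ arrays lay under the floor, so small differences among these 10 are not resolved.

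**Figure D2:**
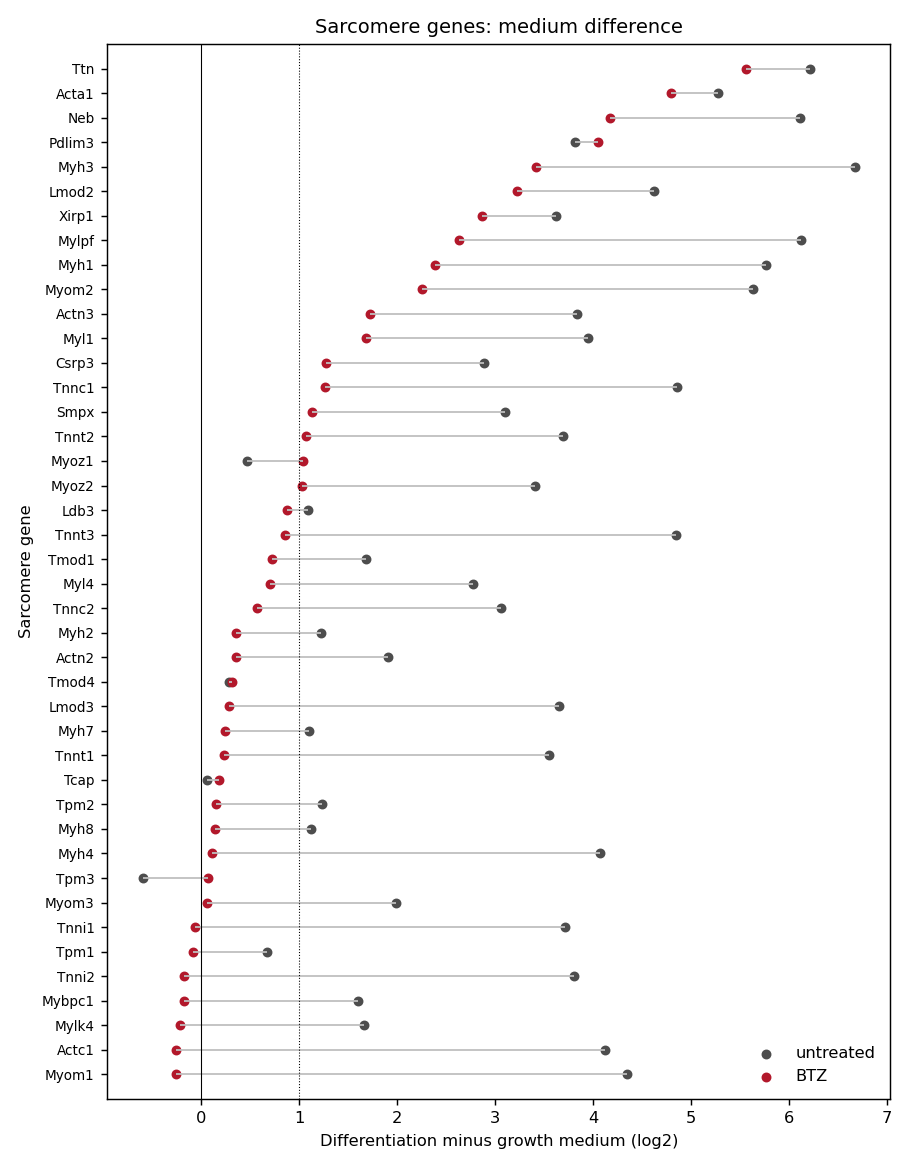
The log2 difference between the media is given for each of the 42 sarcomere genes above the floor, with grey points for untreated and red points for BTZ-treated cells, 1 array a side; the dotted line marks 2-fold. Ttn, Acta1 and Pdlim3 have red and grey points close together, whereas Myom1, Actc1 and Tnni2 have grey points near 4 and red points just under 0. Myom1 and Actc1 were under the floor on both BTZ arrays.

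Because the MyoD family acts through E-boxes, the bases before the start are shown for a pair of genes with most of their difference left under BTZ (Ttn, Acta1) and for a pair with almost none left (Chrng and Atp2a1, described below). Each run is the 250 bases before the annotated start, 5′ to 3′, from RefSeq on GRCm38.p6, and capitals mark every E-box, CANNTG, which covers both strands since its reverse complement has the same form. The windows are chr2:76982548-76982797, minus strand for Ttn, chr8:123894776-123895025, minus strand for Acta1, chr1:87205561-87205810, plus strand for Chrng and chr7:126463074-126463323, minus strand for Atp2a1.
Ttn: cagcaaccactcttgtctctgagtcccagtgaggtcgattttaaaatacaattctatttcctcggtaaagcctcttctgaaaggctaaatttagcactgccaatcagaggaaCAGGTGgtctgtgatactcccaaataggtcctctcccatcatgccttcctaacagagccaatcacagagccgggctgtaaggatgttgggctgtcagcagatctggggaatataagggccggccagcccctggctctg
Acta1: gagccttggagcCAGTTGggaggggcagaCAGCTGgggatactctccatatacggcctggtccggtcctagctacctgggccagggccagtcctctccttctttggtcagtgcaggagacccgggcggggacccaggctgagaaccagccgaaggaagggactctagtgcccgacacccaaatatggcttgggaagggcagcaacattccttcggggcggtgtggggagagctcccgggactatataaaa
Chrng: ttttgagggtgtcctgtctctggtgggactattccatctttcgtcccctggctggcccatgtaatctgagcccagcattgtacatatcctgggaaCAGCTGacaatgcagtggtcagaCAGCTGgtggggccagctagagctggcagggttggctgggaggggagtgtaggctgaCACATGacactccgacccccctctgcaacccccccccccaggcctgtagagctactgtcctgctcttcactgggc
Atp2a1: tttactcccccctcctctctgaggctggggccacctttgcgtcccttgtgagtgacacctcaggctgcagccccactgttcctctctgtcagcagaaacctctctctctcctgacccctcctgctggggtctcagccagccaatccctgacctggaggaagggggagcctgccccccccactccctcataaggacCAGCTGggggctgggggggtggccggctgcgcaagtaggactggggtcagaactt
Ttn has 1 E-box there, Acta1 2, Chrng 3 and Atp2a1 1. The form CAGCTG, a subset of CANNTG that myogenic factors are known to bind, occurs 0, 1, 2 and 1 times. Of the sarcomere and coupling genes that were past 2-fold in untreated cells, 18 that were also past 2-fold higher under BTZ had a window in the table and 8 of them (44.4%) held CAGCTG; of 28 that were not, 11 (39.3%) did. Over all 27025 genes with a window the share was 14.7%, and over all 32851 windows 13.0%. CANNTG was found in 83.3% and 82.1% of the same muscle genes, in 69.3% of all genes with a window and in 66.2% of all windows. These are matches of letters, not binding sites.

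The list of coupling genes, which link nerve signal and membrane voltage to calcium release, was split in a like way. Of 36 listed, 34 were measured and 33 reached the floor; 7 were higher by 2-fold or more under BTZ and 0 lower (median 0.51), against 24 higher in untreated cells (median 1.64) and 23 with TNF-α (median 1.45). All 7 were among the 24. Casq2, a calcium store protein of the sarcoplasmic reticulum, stood at 5.38 and 9.18 with BTZ, a difference of 3.80 after 5.71 in untreated cells. The voltage sensor Cacna1s differed by 1.99, triadin (Trdn) by 1.85 and the release channel Ryr1 by 1.80. Ryr1 rests on 2 probe sets that disagree, at 0.78 and 2.82. Of 8 calcium release and voltage-sensing genes 4 were past 2-fold under BTZ (median 0.99), while 0 of 10 genes of the membrane and dystrophin complex were (median 0.25). Calcium release, uptake and storage genes made up 6 of the 7. Over all genes above the floor 1.54% were higher by 2-fold or more, so 0 of 10 does not set the membrane and dystrophin complex apart.

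The fetal receptor subunit and the fast calcium pump were nearly level between the BTZ-treated cultures. Chrng, the fetal gamma subunit of the receptor, stood at 5.58 and 5.71 with BTZ, against 5.25 and 10.99 in untreated cells, the largest reduction of a difference among all genes above the floor. Chrnd, the delta subunit, stood at 6.18 and 6.99 with BTZ and at 6.17 and 10.42 without. Musk, the receptor kinase that organises the neuromuscular junction, had a similar difference, with 1.67 under BTZ and 1.64 in untreated cells. Atp2a1, the fast calcium pump, stood at 5.34 and 5.28 with BTZ, against 4.96 and 9.87 without. Erbb3, a neuregulin receptor, likewise stood at 5.23 and 4.86 with BTZ, after 4.58 and 8.80. Several of these BTZ values lie at the floor, so small differences between them are not resolved.

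Most regulators of myogenesis lay within 2-fold between the BTZ-treated cultures, with 13 of 18 on the higher side in differentiation medium. Of 18 genes above the floor (20 listed, 19 measured), 2 were higher by 2-fold or more and 0 lower under BTZ (median 0.39), against 10 higher in untreated cells (median 1.25). Of 10 transcription factors 0 were past 2-fold under BTZ, with a range from -0.61 to 0.85. Over all genes above the floor 3.67% were past 2-fold, 1.54% on the higher side, so 0 of 10 does not set these factors apart. Myod1, the founding factor, stood at 7.44 and 6.83 with BTZ and at 8.12 and 9.73 without. Myog stood at 6.08 and 6.93 with BTZ, against 6.71 and 10.90 in untreated cells. Myf5, a factor of undifferentiated myoblasts, stood at 6.94 and 7.66 with BTZ and at 8.78 and 7.88 without. The genes past 2-fold were myomaker (Mymk), a membrane protein needed for fusion, at 5.32 and 7.64, and the laminin receptor subunit Itga7 at 8.88 and 10.40. Myomixer (Mymx), the partner of myomaker, stood at 4.91 and 4.54, both under the floor. The cell adhesion gene Cdh15 differed by 0.87 after 1.74 in untreated cells.

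Mir133b, the gene of a muscle microRNA, was chosen after its values were seen. Its probe set, whose position within the transcript was not examined, stood at 4.62 and 4.29 with BTZ, both under the floor, and at 5.07 and 8.41 in untreated cells. Its mature RNAs are shown with the seed, bases 2 to 8, in capitals, from RefSeq on GRCm38.p6 at chr1:20682797-20682818, plus strand and chr1:20682834-20682855, plus strand.
mmu-miR-133b-5p: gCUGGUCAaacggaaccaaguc
mmu-miR-133b-3p: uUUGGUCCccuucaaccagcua

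Among 14 inhibitors of differentiation above the floor, 2 were lower by 2-fold or more under BTZ and 0 higher (median 0.04). Over all genes above the floor 2.13% were lower and 1.54% higher. Id3, which binds E proteins and keeps them from MyoD, stood at 7.55 and 5.44 with BTZ, a difference of -2.10 after -1.32 in untreated cells. Id2 stood at 8.39 and 7.09, a difference of -1.30 after -0.99. For these Id genes, named for the largest differences of the list under BTZ, the difference was larger in size under BTZ than without it. In 8 of the 14 members it was smaller in size under BTZ.

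Mitotic genes stood lower in the BTZ-treated differentiation culture as well. All 38 measured mitotic genes of 40 listed reached the floor, with 34 of them 2-fold or more lower under BTZ and 0 higher (median -1.85), against 38 in untreated cells (median -2.92) and 38 with TNF-α (median -2.38). The median signal of the group was 9.41 in untreated growth medium, 6.93 in growth medium with BTZ, 6.34 in untreated differentiation medium and 5.13 in differentiation medium with BTZ. The lowest values of these genes were thus in the differentiation culture with BTZ, close to the floor, where differences are compressed. In 106 of the 291 genes lower under BTZ the differentiation-medium array lay under the floor.

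Within the group, genes of cytokinesis and chromosome structure had the largest differences, with 9 of 9 lower by 2-fold or more (median -2.99). Their median signal with BTZ was 7.79 in growth medium and 5.16 in differentiation medium. Kinetochore and spindle genes stood at 6.84 and 5.07, and kinases, cyclins and regulators at 6.80 and 5.11. Room above the floor thus differed in growth medium, and its part in this ranking was not tested. Ect2, which is needed for cytokinesis, stood at 8.71 and 5.03 with BTZ, a difference of -3.68 after -3.19 in untreated cells. Anillin (Anln), a scaffold of the contractile ring, stood at 7.71 and 4.19, and topoisomerase Top2a at 7.41 and 4.37. The kinetochore motor Cenpe differed by -3.37 and the kinetochore gene Ndc80 by -3.32. Among the kinases and cyclins 12 of 13 were past 2-fold (median -1.87), with the checkpoint kinase Bub1 at -2.89, cyclin A2 (Ccna2) at -2.58 and Cdk1 at -1.92. The 4 members short of 2-fold were Aurkb at -0.86, Spc25 at -0.82, Cenpa at -0.76 and Spc24 at -0.31. Survivin (Birc5) stood at 4.96 and 3.68 with BTZ, both under the floor, so its difference of -1.28 is not comparable with its untreated -3.51. The centriole duplication gene Stil, outside the list, stood at 7.70 and 4.24.

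**Figure D3:**
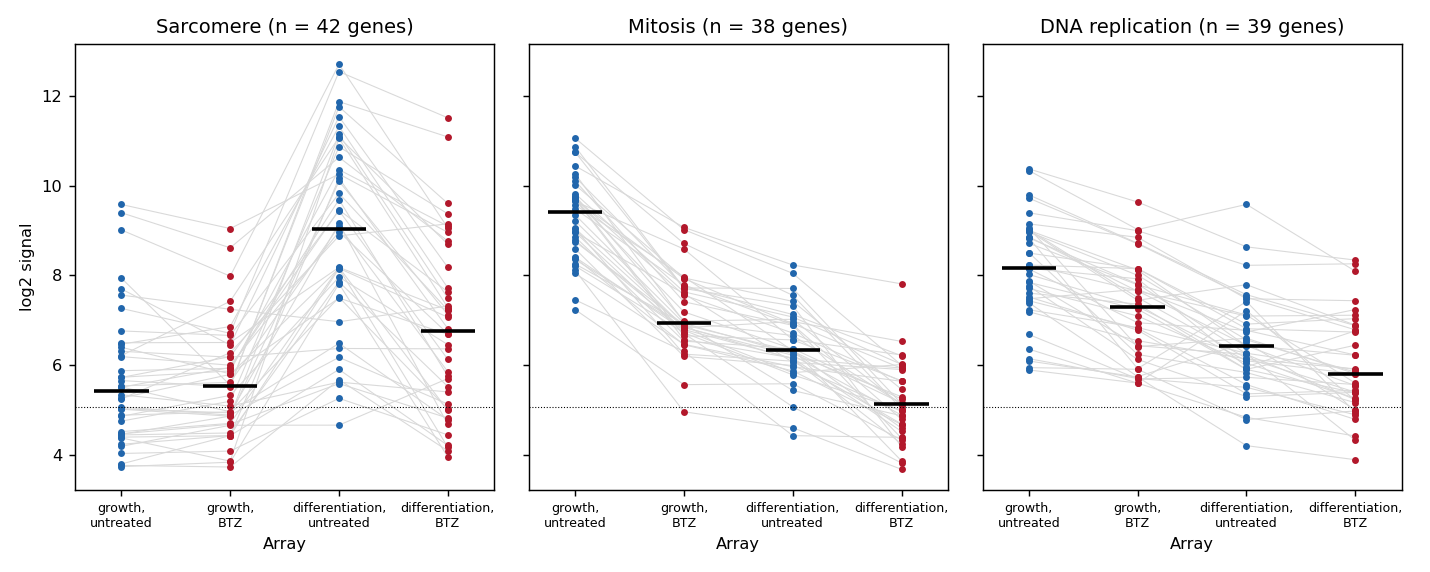
The log2 signal of every sarcomere, mitosis and DNA replication gene above the floor is shown on 4 arrays, with grey lines joining a gene, black bars for group medians, blue points for untreated and red points for BTZ arrays; the dotted line is the floor of 5.06. Mitotic medians step down from 9.41 to 6.93, 6.34 and 5.13, and sarcomere medians stand at 5.43, 5.54, 9.03 and 6.76.

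DNA replication genes were lower too, by less. Of 39 measured genes (42 listed) 22 were 2-fold or more lower under BTZ and 0 higher (median -1.16), against 32 lower and 1 higher in untreated cells (median -1.67). All 22 were among the 32. For the genes lower in untreated cells the median share remaining was 75.9%, against 68.5% for mitotic genes; the difference between these shares was not tested. The primase subunit Prim1 stood at 7.81 and 4.33 with BTZ, a difference of -3.48 after -2.58 in untreated cells. Of 15 helicase and origin genes 10 were past 2-fold (median -1.41), with the helicase subunits Mcm3 at -2.57 and Mcm2 at -2.16. The chromatin assembly subunit Chaf1b differed by -2.19. In the group of nucleotide supply, chromatin and E2F genes 3 of 12 were past 2-fold (median -0.73), and thymidine kinase (Tk1) stood at 6.41 and 5.81 with BTZ after 9.05 and 6.60. E2f2, the one gene of the list that was higher in untreated differentiation medium, at 1.32, differed by -0.38 under BTZ.

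Histone genes of replicating cells were measured in part, 3 of 16 listed. The linker histone H1f5 stood at 6.20 and 4.06 with BTZ after 9.81 and 5.98. H2bc3 stood at 5.81 and 5.82 with BTZ after 8.86 and 6.60. H2ac20, a core histone gene outside the list, had the most negative difference of all genes above the floor, with 7.66 and 3.95 under BTZ, -3.71 after -2.96.

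Cyclin D1 and a few other genes had opposite differences with and without BTZ. Of the 13652 genes, 5 were lower by 2-fold or more in untreated differentiation medium and higher by 2-fold or more in it under BTZ, and 0 went the reverse way. Ccnd1 differed by -2.22 in untreated cells, by -1.30 with TNF-α and by 1.16 under BTZ. Its levels were 10.08, 10.41 and 7.80 in growth medium (untreated, TNF-α, BTZ) and 7.86, 9.11 and 8.96 in differentiation medium. Cdk6, a kinase partner of D cyclins, stood at 8.88 and 7.64 untreated and at 6.74 and 7.79 with BTZ, a difference of 1.05. Csf1, the macrophage growth factor, stood at 11.12 and 9.80 untreated and at 9.33 and 10.72 with BTZ. The chemokine Ccl2 stood at 7.52 and 6.09 untreated and at 6.41 and 7.51 with BTZ. For these 4 genes the BTZ array was below the untreated array in growth medium and above it in differentiation medium. Cth, which makes cysteine from cystathionine, stood at 6.07 and 4.39 untreated and at 6.04 and 7.55 with BTZ, so the growth-medium arrays were level.

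Of 17 genes that control the G1 phase, 4 were higher by 2-fold or more and 1 lower under BTZ (median 0.04), against 2 higher and 3 lower in untreated cells (median -0.12). Shares over all genes above the floor were 1.54% higher and 2.13% lower under BTZ. Beside Ccnd1 and Cdk6, the higher G1 genes were cyclin D2 (Ccnd2) and the inhibitor Cdkn1a. Ccnd2 stood at 5.98 and 7.40 with BTZ, after 6.64 and 7.18, and Cdkn1a differed by 1.04 with BTZ after 3.32. The lower gene was Rbl1, the pocket protein p107, at 6.98 and 5.38. Cyclin D3 (Ccnd3), which is known to rise in differentiating muscle, stood at 6.45 in both BTZ arrays after 7.96 and 9.02. Of the D cyclins, Ccnd1 alone had differences of opposite sign with and without BTZ at 2-fold or more.

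**Figure D4:**
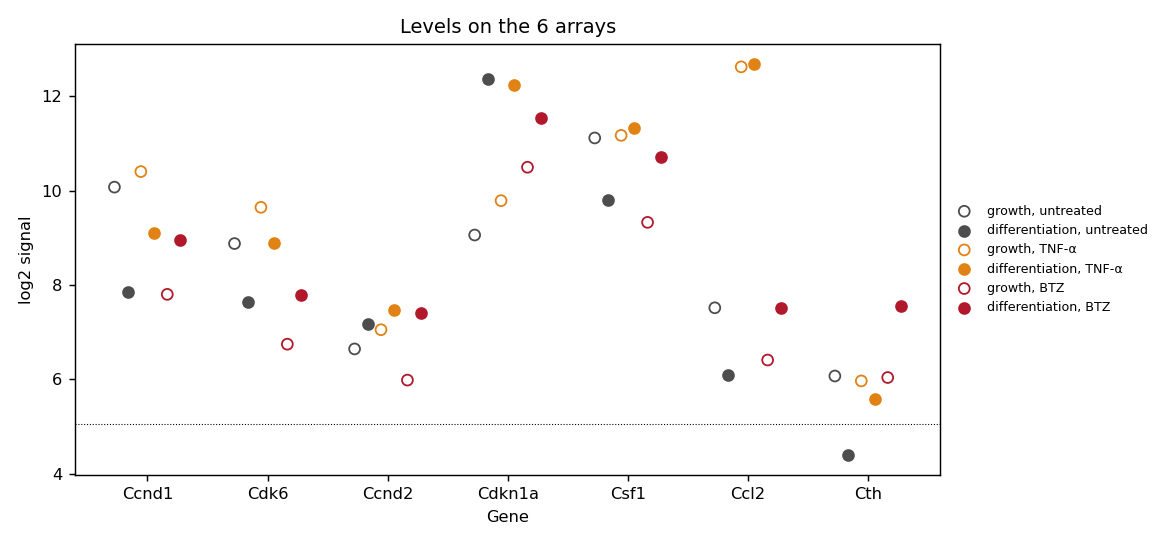
The log2 signal of 7 genes is shown on each of the 6 arrays, with open symbols for growth medium and filled symbols for differentiation medium; the dotted line is the floor of 5.06. For Ccnd1, Cdk6, Csf1, Ccl2 and Cth the filled grey symbol lies below the open one and the filled red (BTZ) symbol lies above, as in Ccnd1 at 10.08 and 7.86 untreated and 7.80 and 8.96 with BTZ.

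Matrix genes were somewhat higher in differentiation medium under BTZ, at lower levels in both media. Of 36 above the floor (43 listed, 40 measured) 7 were higher by 2-fold or more and 1 lower (median 0.34), against 8 and 1 in untreated cells (median 0.50). All genes above the floor had 1.54% higher and 2.13% lower under BTZ, and 4.83% and 3.92% in untreated cells. The median of the matrix genes was 7.63 and 8.39 with BTZ, against 9.74 and 10.27 without. Decorin (Dcn), a small proteoglycan that binds collagen, stood at 4.97 and 6.77 with BTZ, a difference of 1.80 after 4.25. Col8a1 differed by 1.69 after 1.10, periostin (Postn) by 1.68 after 2.58, and osteoglycin (Ogn) by 1.61 after 0.29. Col3a1, a fibrillar collagen, stood at 7.15 and 8.70 with BTZ after 10.73 and 11.89. Of the 8 genes higher in untreated cells 4 were past 2-fold under BTZ.

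Growth factor genes mostly lay within 2-fold between the media under BTZ, as did most genes. Of all genes above the floor, 1.54% were higher and 2.13% lower by 2-fold or more. In the insulin-like growth factor list 2 of 13 genes were higher by 2-fold or more under BTZ (median 0.43), against 6 higher and 1 lower in untreated cells (median 0.75). Igf1 stood at 4.85 and 5.23 with BTZ after 6.59 and 9.56. The binding protein Igfbp5 stood at 6.14 and 8.33, a difference of 2.19 after 2.73, and Igfbp3 at 6.58 and 8.19, a difference of 1.61 after 0.22. In the TGF-beta list 1 of 18 was higher and 2 lower under BTZ (median 0.22). Follistatin (Fst), which binds activin and myostatin, stood at 6.40 and 6.80 with BTZ after 7.43 and 10.31, while the activin subunit Inhba differed by -1.41 and the inhibitory Smad6 by -1.35.

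Nearly all genes of protein quality control lay within 2-fold between the BTZ-treated cultures. Of 33 proteasome genes 0 were past 2-fold either way, and the median was 0.07 after -0.19 in untreated cells; the group stood at 10.10 and 10.17 with BTZ, against 9.20 and 9.18 without. Psmf1, a proteasome inhibitor subunit, had the largest difference, 0.61, with Psmd7 at 0.32. Of 26 heat shock genes 1 was past 2-fold, the muscle small heat shock gene Hspb7 at 5.00 and 6.25, but 22 of 26 were on the higher side (median 0.34, after -0.02 in untreated cells). The co-chaperone Dnaja4 differed by 0.98, and Hsph1 stood at 11.15 and 12.06. Of 39 genes of the integrated stress response and endoplasmic reticulum 0 were past 2-fold, with 33 on the higher side (median 0.26, after -0.31). The transcription factor Atf3 stood at 9.13 and 10.10 and the stress regulator Sesn2 at 8.32 and 9.22. Apart from Hspb7, these differences are under 2-fold. Over all genes above the floor 3.67% were past 2-fold under BTZ, so such low counts do not set these lists apart.

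The antioxidant targets of NRF2 were level under BTZ. Of 20 genes 0 were past 2-fold (median -0.00), which is near the 3.67% of all genes under BTZ. In untreated differentiation medium 8 were lower by 2-fold or more (median -0.97), against 3.92% of all genes. With TNF-α 8 were lower (median -0.74), against 4.85% of all genes. Nqo1, a quinone reductase, stood at 8.65 and 8.03 with BTZ after 9.52 and 5.97. Gclm, a subunit of the enzyme that starts glutathione synthesis, stood at 10.30 and 10.32 after 9.68 and 7.63. Haem oxygenase (Hmox1) differed by 0.63 after -1.51. The group median was 9.71 and 9.80 with BTZ and 9.48 and 8.30 without, and 9.20 and 8.06 with TNF-α, so the untreated and TNF-α differentiation cultures were the lowest.

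Cholesterol synthesis genes were mostly on the lower side under BTZ, where 2.13% of all genes above the floor were lower by 2-fold or more and 1.54% higher. Of 18 genes 2 were lower by 2-fold or more and 0 higher (median -0.55), and 17 of the 18 had a negative difference, while in untreated cells 0 were past 2-fold (median -0.12). Fdft1, squalene synthase, stood at 8.70 and 7.37 with BTZ after 10.52 and 10.56, and Fdps at 8.88 and 7.70 after 10.23 and 9.93.

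For the next lists, the shares of all genes above the floor under BTZ were 1.54% higher and 2.13% lower by 2-fold or more. In the list of muscle-wasting ligases and autophagy genes 3 of 30 were higher by 2-fold or more under BTZ and 0 lower (median 0.14), against 6 higher in untreated cells (median 0.61). They were the muscle ubiquitin ligase Fbxo40 at 5.50 and 7.71, and the Kelch proteins Klhl40 at 5.28 and 7.42 and Klhl41 at 5.71 and 7.51, which are known to stabilise thin filaments. Fbxo40 had a smaller difference in untreated cells, 0.75. Trim63, a ligase known from atrophy, differed by 0.20 after 1.82, and Fbxo32, another, by -0.19 after 1.43. Of 16 autophagy genes 0 were past 2-fold, near the 3.67% of all genes under BTZ. Among 22 targets of p53, 4 were higher and 0 lower (median 0.49, after 0.61), with the death receptor Fas at 5.70 and 7.41, Gadd45b at 8.18 and 9.67, Eda2r at 8.03 and 9.40, and Cdkn1a. All 4 were also past 2-fold in untreated cells.

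The lists given here had medians from -0.26 to 0.08 under BTZ, where all genes had -0.00. The ribosomal genes lay lowest, with 15 of 22 on the lower side. Medians under BTZ were -0.08 for 19 glycolysis genes, -0.05 for 24 respiratory genes, -0.26 for 22 ribosomal protein genes, 0.08 for 26 NF-kB targets, -0.17 for 16 interferon-stimulated genes, -0.10 for 11 genes of MHC class I presentation and -0.10 for 11 housekeeping genes. Within them, muscle glycogen phosphorylase (Pygm) at 5.06 and 6.16 and the muscle cytochrome oxidase subunit Cox6a2 at 5.78 and 6.92 were past 2-fold, and both were higher in untreated differentiation medium too. The transferrin receptor Tfrc, on the housekeeping list, stood at 8.19 and 6.94, and the phosphofructokinase Pfkp at 8.38 and 7.36.

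Most markers of other cell types were under the floor, and the macrophage markers above it were lower in differentiation medium with and without BTZ. Of 7 measured adipocyte markers 5 were under the floor on each BTZ array, of 6 osteoblast markers 5 and 4, of 8 endothelial markers 7 and 7, and of 8 macrophage markers 5 and 6 (growth and differentiation medium). The log2 of the summed linear signal was 8.16 and 7.84 for adipocyte markers, 7.25 and 7.34 for osteoblast, 7.69 and 7.56 for endothelial and 9.36 and 8.67 for macrophage markers. The macrophage sum rests on Cd14, at 8.32 and 7.75 with BTZ after 6.32 and 5.95 untreated, and Cd68, at 7.74 and 6.24 after 6.57 and 5.63. The median difference of the 3 macrophage markers above the floor was -0.57 under BTZ, -0.36 untreated and -0.51 with TNF-α. The leukocyte marker Ptprc was at 3.34 and 3.56 with BTZ and Adgre1 at 4.23 and 3.65, all under the floor. The part of these other cell types in the results was not tested.

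**Figure D5:**
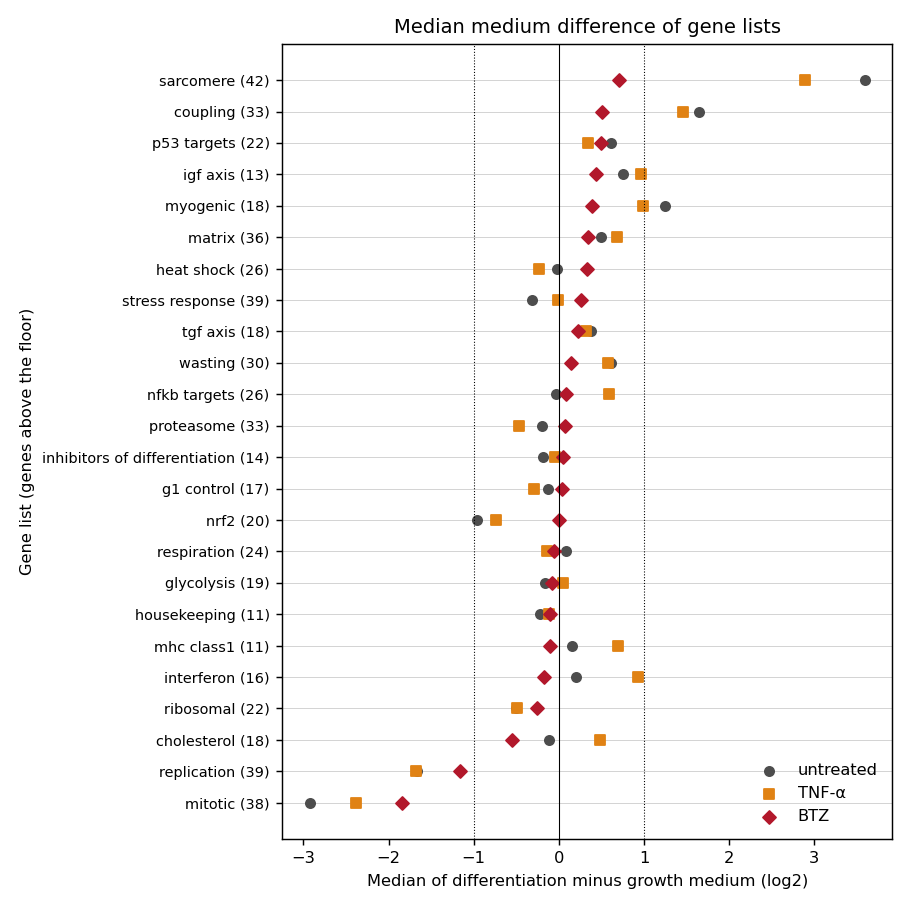
Points give the median log2 difference between the media for each gene list with 5 or more genes above the floor (number in parentheses), for untreated (grey circles), TNF-α (orange squares) and BTZ (red diamonds) arrays, 1 array a side. The sarcomere median moves from 3.59 untreated to 0.71 with BTZ, the mitotic median from -2.92 to -1.85, and the NRF2 median from -0.97 to -0.00.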

How the data were processed

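Total RNA of 6 C2C12 cultures was labelled by a whole-transcript protocol and hybridized to 1 Affymetrix array each, per the labels' protocols. The deposited table gives each probe set a value on every array; the range of the values is that of log2 signals, and how the authors summarized and normalized them is not given in the sources used here. Of 41345 probe sets, 23521 named 1 gene in the platform annotation and 1814 several; probe sets of the same single symbol were averaged (22180 genes, of which 13652 reached the floor, the median of all values, on at least 1 array). Symbols of the 23328 probe sets whose Entrez number was in the RefSeq table all matched it. Arrays were grouped by title. Differences were computed with pandas 2.3.3 in Python 3.11.15, with no further scaling and no test. The counting was tested on simulated data, with changes well past 2-fold in genes well above the floor. That run checks the counting only and does not cover genes near the floor or near the threshold.

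The members and the 29 gene lists were chosen with earlier results of these data known. Genes named are Ttn, Neb and Ccnd1, the 8 highest and 8 lowest differences under BTZ with predicted genes, microRNA and other small RNA genes and the olfactory, vomeronasal and immune receptor genes left out, the 4 largest of each main list and 2 of each other list, the 6 largest shifts of the difference each way, and genes with opposite differences. Other genes named were chosen after their values were seen. Alternatives were the filter, the scaling, the probe set per gene and the threshold.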

Additional observations from a re-analysis of the deposited data

Results flagged for a closer look

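In 5 genes the difference between the media had one sign in untreated cells and the opposite sign under BTZ, at 2-fold or more each time. The differences under BTZ were 1.51 for Cth, 1.39 for Csf1, 1.16 for Ccnd1, 1.10 for Ccl2 and 1.05 for Cdk6, and in untreated cells they were -1.68, -1.32, -2.22, -1.42 and -1.24. The change between them was not tested, since each group is 1 array.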

How the results depend on the processing

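No result had replicates, so leaving out an array was not possible. No paired analysis was possible because each group holds 1 array. At a 3-fold threshold, which counts fewer genes by construction, 65 genes were higher and 106 lower in differentiation medium under BTZ, and 38 of 258 higher and 85 of 239 lower untreated genes stayed past it (14.7% and 35.6%). Under the other alternatives these counts stayed within 1.5 times: 201 to 223 higher, 274 to 320 lower, 115 to 119 and 175 to 187 remaining. Without a filter the sarcomere median was 0.57 and the matrix median 0.24; with the floor at the 60th percentile the sarcomere and coupling medians were 0.86 and 0.74. Under these alternatives 132 values of list medians moved by less than 0.1 and 12 by more. Of the genes named by the stated rules, Pfkp fell short of 2-fold after quantile normalization (-0.98). The other 426 values for these genes under the alternatives stayed on their side of 2-fold. Genes named after their values were seen, such as Myoz2, Cdkn1a and Tnnt2, were not followed under the alternatives. Signals near the floor limit 61 of the 210 higher and 106 of the 291 lower genes.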

Other observations

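Some genes were past 2-fold between the media under BTZ and short of 2-fold in untreated cells, a difference between the conditions that was not tested: 93 were higher by 2-fold or more and 110 lower, and 77 and 93 of these were not past 2-fold with TNF-α either. The genes given here were chosen after their values were seen. Xirp2, a muscle gene related to Xirp1, stood at 4.17 and 6.50 with BTZ (growth and differentiation medium) after 3.98 and 4.16. The gelatinase Mmp9 stood at 4.98 and 7.12 after 5.48 and 5.17, the Notch ligand Jag1 at 6.49 and 8.16 after 6.45 and 7.03, and the ephrin Efnb2 at 7.10 and 8.90 after 8.10 and 7.80. On the lower side, the LIM protein Crip1 stood at 6.74 and 4.59 with BTZ after 10.38 and 10.90, and the calcium-binding proteins S100a4 and S100a6 at 9.84 and 8.11 and at 10.40 and 8.95, after 11.87 and 11.06 and 11.03 and 10.75. Ezh2, a histone methyltransferase of Polycomb, stood at 8.39 and 6.80 after 9.19 and 8.30. Prl2c5, a prolactin relative, reached the floor on 1 array, growth medium with BTZ, at 6.04, and stood at 3.34 in differentiation medium with BTZ.

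The motif TTTGAA, part of an element known from mitotic promoters, was found on either strand of the window before the start in 10 of 30 mitotic genes with a window (33.3%), against 18.3% of all 27025 genes. This is a description of letters, not of binding.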
